A study of Mus musculus with 7 samples.

Results

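The genes described here are 10 components of the cAMP cascade in the hippocampus: the adenylyl cyclases Adcy1, Adcy2, Adcy3, Adcy5, Adcy8 and Adcy9, the protein kinase A (PKA) catalytic subunits Prkaca and Prkacb, and the PKA regulatory subunits Prkar1b and Prkar2b. They were taken by symbol, after removal of the identifier version, from a table of 22248 genes, and all 10 were found. Messenger RNA was sequenced from synaptoneurosomes, a fraction of pinched-off nerve endings with attached postsynaptic material, prepared from the hippocampus of wild-type female C57Bl/6J mice. There were 4 libraries after sub-chronic AM6545, labelled replicates B, D, E and F, and 3 after vehicle, labelled replicates B, D and E. AM6545 blocks the cannabinoid receptor CB1 and crosses poorly into the brain. The title of the series concerns cognitive performance and hippocampal plasticity in mice that had no other manipulation. Dose, duration, age and how many mice entered a library are not given in the sources used here, so p-values measure the spread between these libraries, which may be technical.

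Adenylyl cyclases are membrane enzymes that make cAMP from ATP. The alpha subunits Gs and Golf activate them, the Gi and Go family, to which CB1 couples, restrains many of them, and some isoforms also respond to calcium and calmodulin. Resting PKA is a holoenzyme of regulatory and catalytic subunits; cAMP binds the regulatory subunits and frees the catalytic subunits, which phosphorylate channels, receptors, synaptic vesicle proteins and the transcription factor CREB. In the hippocampus this cascade is known for its part in the late phase of synaptic potentiation and in presynaptic plasticity at mossy fibre terminals.

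Library totals lay between 19174649 and 25894733 estimated counts, and from 16580 to 16874 genes had at least 1 count. Levels are given in CPM, counts scaled per 1000000. Markers of neurons were present. Their summed level over 10 genes was 8447 to 8647 CPM in AM6545 and 7643 to 8107 CPM in vehicle, which did not overlap. Snap25 made up a large part of that sum, at 3549 to 3907 CPM in AM6545 and 3145 to 3273 CPM in vehicle. Of the 10 genes, 6 had a positive and 4 a negative log2 fold change. Only 1 did not overlap between the groups, where 13.8% of all genes tested did not. None of the 10 had an unadjusted p under 0.05 (edgeR). Markers of other cells were present too, and no marker list was at 0. Dentate granule cell markers summed to 515 to 632 CPM in AM6545 and 526 to 621 CPM in vehicle. For CA3 pyramidal cell markers the sums were 1477 to 1701 CPM and 1425 to 1714 CPM. Both sums overlapped between the groups, and both lists had 0 genes with an unadjusted p under 0.05. The sums of astrocyte, oligodendrocyte, and endothelial and mural cell markers overlapped too. Summed levels of 8 markers of CA1 pyramidal cells (801 to 895 CPM in AM6545, 914 to 996 CPM in vehicle) and of 8 markers of oligodendrocyte precursors (336 to 352 CPM and 364 to 384 CPM) were separate and lower in AM6545, with 2 of 8 lower at that mark in each list, where 8.70% of all genes tested were lower. Of 10 microglial markers, 6 were lower in AM6545 at that mark and 5 did not overlap between the groups, against 13.8% of all genes tested without overlap in either direction; their summed level was 1016 to 1112 CPM in AM6545 and 1066 to 1355 CPM in vehicle. All 10 choroid plexus markers had a negative log2 fold change, as had 7125 of the 14654 genes tested. None of the 10 had an unadjusted p under 0.05. Their summed level was 1677, 1196, 2071 and 435 CPM in AM6545 replicates B, D, E and F, and 1635 to 2891 CPM in vehicle. Of 10 markers of striatal projection neurons, which also use Adcy5, none had an unadjusted p under 0.05, and their summed level was 459 to 526 CPM in AM6545 and 479.5 to 511 CPM in vehicle. These marker values were not corrected for GC content and length. With that correction, described below, median log2 fold changes went from -0.33 to -0.14 for microglia and from 0.10 to -0.01 for neurons. They went from -0.06 to -0.02 for oligodendrocyte precursors, -0.18 to -0.12 for CA1 pyramidal cells and -0.31 to -0.29 for choroid plexus. The part of base composition and length in them was not tested. The part of these cell types in the results that follow was not tested. In such bulk libraries fewer cells or particles of a type and less RNA in each cannot be told apart.

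The Prkacb gene (GRCm38 chr3:146729574-146812990, minus strand) has several first exons that join a common body, so its transcripts encode catalytic subunits that differ at the amino terminus. Their coding starts are shown because the transcripts were measured separately and their shares of Prkacb counts are given below. In each line the capitals are the coding bases of that transcript's own first coding exon, 5′ to 3′ from the start codon, and the lower case letters are the first 15 coding bases that all 3 share.
Prkacb-202: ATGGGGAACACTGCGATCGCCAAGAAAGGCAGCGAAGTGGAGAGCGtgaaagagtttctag
Prkacb-203: ATGAATGtgaaagagtttctag
Prkacb-204: ATGGGCTTGTtgaaagagtttctag
Prkacb-202 has 46 coding bases of its own in this comparison, against 7 in Prkacb-203 and 10 in Prkacb-204, and the remaining 1007 coding bases are common. Over the whole transcript, Prkacb-203 shares 91.9% of its bases with Prkacb-202 and Prkacb-204 shares 93.3%, so their counts rest on the reads that touch the first exons.

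The members whose groups did not overlap, Adcy1, Prkacb and Prkar2b, are shown here with the 250 bases before a RefSeq start site (build GRCm38.p6, 5′ to 3′ on the strand of the gene), to set the start regions of genes that differed in opposite directions side by side. The start of Prkacb-203 is added because it is the other Prkacb start for which RefSeq and the measured transcripts lie within 100 bases and that took over 1% of counts. Capitals mark a GC box (GGGCGG) or the core of a cAMP response element (TGACG), each on either strand; the core is contained in the full element TGACGTCA.
Adcy1, chr11:7063183-7063432, plus strand: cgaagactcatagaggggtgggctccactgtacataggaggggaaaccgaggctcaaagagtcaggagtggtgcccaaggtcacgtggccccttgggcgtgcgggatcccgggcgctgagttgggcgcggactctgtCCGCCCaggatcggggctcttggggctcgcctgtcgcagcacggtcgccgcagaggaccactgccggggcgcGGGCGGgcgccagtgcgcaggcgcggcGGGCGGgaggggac
Prkacb-202, chr3:146812947-146813196, minus strand: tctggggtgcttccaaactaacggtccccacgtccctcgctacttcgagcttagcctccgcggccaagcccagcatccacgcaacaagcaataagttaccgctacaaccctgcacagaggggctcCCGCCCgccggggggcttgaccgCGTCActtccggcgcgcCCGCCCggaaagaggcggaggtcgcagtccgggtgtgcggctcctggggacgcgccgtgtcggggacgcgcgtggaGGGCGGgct
Prkacb-203, chr3:146770239-146770488, minus strand: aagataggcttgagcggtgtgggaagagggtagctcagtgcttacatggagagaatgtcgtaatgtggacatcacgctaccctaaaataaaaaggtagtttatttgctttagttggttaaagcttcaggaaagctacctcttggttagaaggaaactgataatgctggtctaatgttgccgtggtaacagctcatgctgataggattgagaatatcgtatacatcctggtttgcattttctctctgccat
Prkar2b, chr12:32061278-32061527, minus strand: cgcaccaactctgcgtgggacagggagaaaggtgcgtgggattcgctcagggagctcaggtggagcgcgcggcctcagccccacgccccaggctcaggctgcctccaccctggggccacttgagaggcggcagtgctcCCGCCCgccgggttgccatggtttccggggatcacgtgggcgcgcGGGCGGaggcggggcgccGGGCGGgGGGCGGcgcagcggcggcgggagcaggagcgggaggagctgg
RefSeq windows of 300 bases (250 before and 50 after the start) were found for 9 of the 10 genes, 18 windows in all, and none matched Adcy8. A GC box occurred in 11 of the 18 windows, at least 1 for each of the 9 genes, and in 35.7% of 32851 promoter windows of that length. The TGACG core occurred in 4 windows of 4 genes (Prkacb, Prkar1b, Prkaca and Adcy9) and in 20.8% of all windows. The full element TGACGTCA was in none of the 18 and in 1.79% of all, and TATAAA was in 1, that of Prkacb-201, and in 13.6% of all. GC content was 72% in the window of Prkacb-202, 74% for Adcy1 and 75% for Prkar2b, against 42.3% for Prkacb-203 and a median of 52.7% over all windows. These matches describe letters and do not show that a factor binds.

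Levels of different genes were compared as CPM per kilobase, in which the estimated counts of each transcript are divided by its length and summed per gene. The order of genes depends on this division and on the transcript lengths used. In CPM without it, Adcy1 was above Adcy2 in every library, with means of 262 and 195 in AM6545 and 354 and 208 in vehicle. Prkacb was then above Prkaca in every AM6545 library, with means of 216 and 193, and the vehicle means were 171 and 176. Among the cyclases Adcy2, an isoform stimulated by G protein beta-gamma subunits together with Gs, was the most abundant at 47.6 ± 3.03 CPM per kilobase (SD, n = 7 libraries). Adcy1, stimulated by calcium and calmodulin, followed at 24.6 ± 4.67, and Adcy3, a cyclase of olfactory and neuronal cilia, at 12.2 ± 0.968 (both in CPM per kilobase, SD, n = 7). Adcy9 at 7.56 ± 2.10 and Adcy5 at 7.34 ± 1.37 CPM per kilobase (SD, n = 7) could not be ordered: Adcy9 was above Adcy5 in 3 of 7 libraries. Adcy8, the other calcium- and calmodulin-stimulated isoform of neurons, was at 2.31 ± 0.477 CPM per kilobase (SD, n = 7).

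The ranges over libraries were separate between Adcy2 and Adcy1, between Adcy1 and Adcy3, and between Adcy5 and Adcy8. Those of Adcy3 and Adcy9 overlapped, with Adcy3 higher in 6 of 7 libraries. The cyclases Adcy6 and Adcy7 lay lower, at 1.61 ± 0.507 and 0.533 ± 0.124 CPM per kilobase (SD, n = 7), and Adcy8 was above Adcy6 in 6 of 7 libraries. Adcy4 and the soluble cyclase Adcy10 had 24 and 19 counts over all libraries together and were not tested. Of the summed level of all 10 cyclases, Adcy2 made up 41.8% to 49.2% across libraries and Adcy1 20.3% to 27.4%.

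Of the PKA catalytic subunits, Prkaca was at 81.5 ± 6.14 CPM per kilobase and Prkacb at 45.6 ± 7.02 (SD, n = 7), with Prkaca higher in 7 of 7 libraries, and the related kinase Prkx was at 2.84 ± 0.428 (SD, n = 7). The type I regulatory subunit Prkar1b, which is largely neuronal, was at 246 ± 19.2 CPM per kilobase, below the broadly expressed Prkar1a at 289.9 ± 30.5 (SD, n = 7) in 7 of 7 libraries, although their ranges over libraries overlapped. The type II regulatory subunit of neurons, Prkar2b, was at 9.16 ± 1.51 CPM per kilobase and Prkar2a at 7.55 ± 0.683 (SD, n = 7), with Prkar2b higher in 6 of 7 libraries. Prkar1b thus made up 42.5% to 46.1% of the summed regulatory subunit level and Prkar2b 1.44% to 2.18%.

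**Figure D1:**
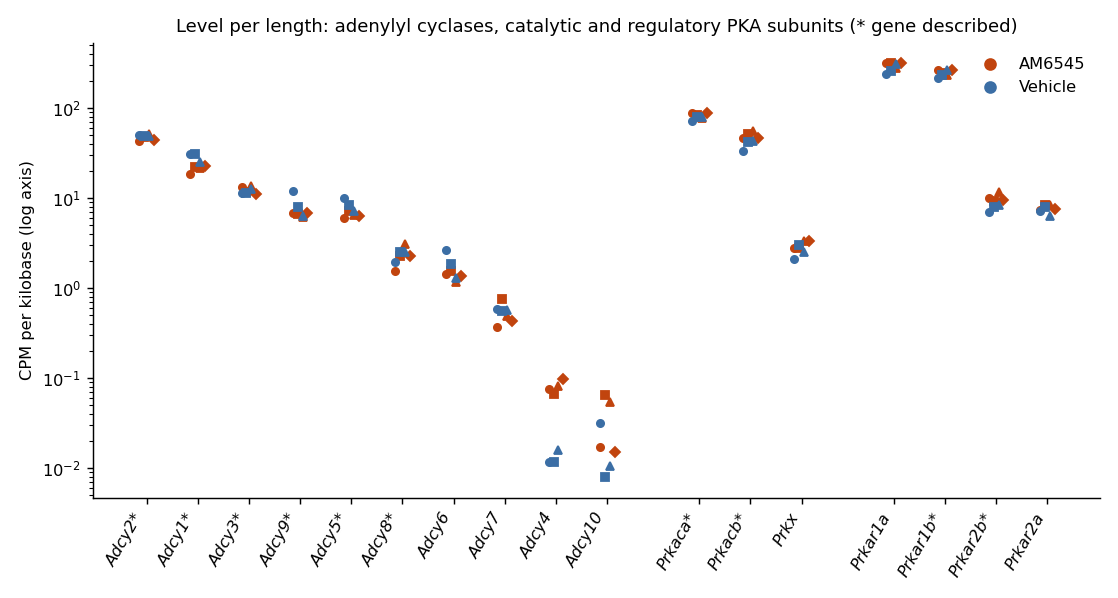
Level per length (CPM per kilobase, log axis) of adenylyl cyclases, PKA catalytic subunits and PKA regulatory subunits; each point is 1 library, coloured by treatment, with a marker shape for each replicate letter. Per length, Adcy2, Prkaca, Prkar1a and Prkar1b are the most abundant of their families. Adcy4 and Adcy10 lie below 0.1 CPM per kilobase in every library.

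The comparison of AM6545 with vehicle asked whether the mRNAs of these genes differ between the treatments in the synaptic fraction. None of the 10 genes passed an adjusted p under 0.05 (edgeR quasi-likelihood test, Benjamini-Hochberg over 14654 genes, of which 0.00682% were called). At an unadjusted p under 0.05 there were 5 of 10: the cyclases Adcy1, Adcy5 and Adcy9 were lower in AM6545, and the PKA subunits Prkacb and Prkar2b were higher. Over all genes tested 14.6% met that mark, 5.86% higher and 8.70% lower. In 3 of 10 the groups were separate, Adcy1 (lower) and Prkacb and Prkar2b (higher), against 13.8% of all genes tested. The median log2 fold change of the 10 was 0.03, and that of all genes tested was 0.01.

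Values per library are given in CPM, which are scaled counts (TMM, trimmed mean of M-values), and log2 fold changes are AM6545 over vehicle. Adcy1 (ENSMUSG00000020431.6; GRCm38 chr11:7063489-7178506, plus strand) was at 228, 274, 265 and 282 CPM in AM6545 replicates B, D, E and F and at 376, 380.3 and 307 CPM in vehicle replicates B, D and E. Every AM6545 library was below every vehicle library, and vehicle replicate E was the vehicle library closest to the AM6545 group. The means were 262 ± 24.1 CPM (SD, n = 4) and 354 ± 41.2 CPM (SD, n = 3), a log2 fold change of -0.43 (SE 0.11; edgeR, p 0.00200, adjusted p 0.199).

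Adcy5 (ENSMUSG00000022840.10; chr16:35154877-35305738, plus strand), a cyclase restrained by Gi and by calcium, was at 42.5, 49.96, 45.5 and 44.0 CPM in AM6545 and at 69.5, 58.9 and 49.90 CPM in vehicle, in the same order of replicates. The groups overlapped by a narrow margin, between AM6545 replicate D and vehicle replicate E. Its log2 fold change was -0.39 (SE 0.12; edgeR, p 0.00693, adjusted p 0.231). Adcy9 (ENSMUSG00000005580.12; chr16:4287529-4420498, minus strand), a cyclase that responds poorly to forskolin, was at 31.9, 31.7, 29.4 and 32.7 CPM in AM6545 and at 58.2, 38.2 and 29.7 CPM in vehicle. The 4 AM6545 libraries were close together while the 3 vehicle libraries were spread, with replicate B far above and replicate E within the AM6545 range. Its log2 fold change was -0.42 (SE 0.18; edgeR, p 0.0393, adjusted p 0.319) and was -0.11 without vehicle replicate B.

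For Adcy2 (ENSMUSG00000021536.8; chr13:68620043-68999541, minus strand) the AM6545 libraries were at 182, 199, 215 and 184 CPM and the vehicle libraries at 210.2, 207 and 205 CPM. AM6545 replicate E was above all vehicle libraries and the other 3 were below them. The log2 fold change was -0.09 (95% interval -0.27 to 0.10; edgeR, adjusted p 0.672). Part of its exon sequence (4.49%) lies opposite the gene Gm35161, so a small share of its counts is uncertain where strand was not used.

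Adcy3 (ENSMUSG00000020654.16; chr12:4133103-4213525, plus strand) was at 59.5, 52.2, 62.0 and 51.2 CPM in AM6545 and at 51.7, 51.6 and 57.4 CPM in vehicle, with groups that overlapped. Its log2 fold change was 0.07 (95% interval -0.14 to 0.27; edgeR, adjusted p 0.774). Of its exon bases 22.1% lie opposite exons of Cenpo, which had 635 counts over all libraries against 9022 for Adcy3, so its level is uncertain. Adcy8 (ENSMUSG00000022376.9; chr15:64697084-64922296, minus strand) was at 10.8, 15.8, 21.4 and 15.8 CPM in AM6545 and at 13.6, 17.3 and 17.4 CPM in vehicle. The lowest and the highest library were both AM6545 libraries, replicates B and E. The log2 fold change was -0.01 (95% interval -0.39 to 0.37; edgeR, adjusted p 0.979), and its sign turned in 6 of 19 alternative fits.

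**Figure D2:**
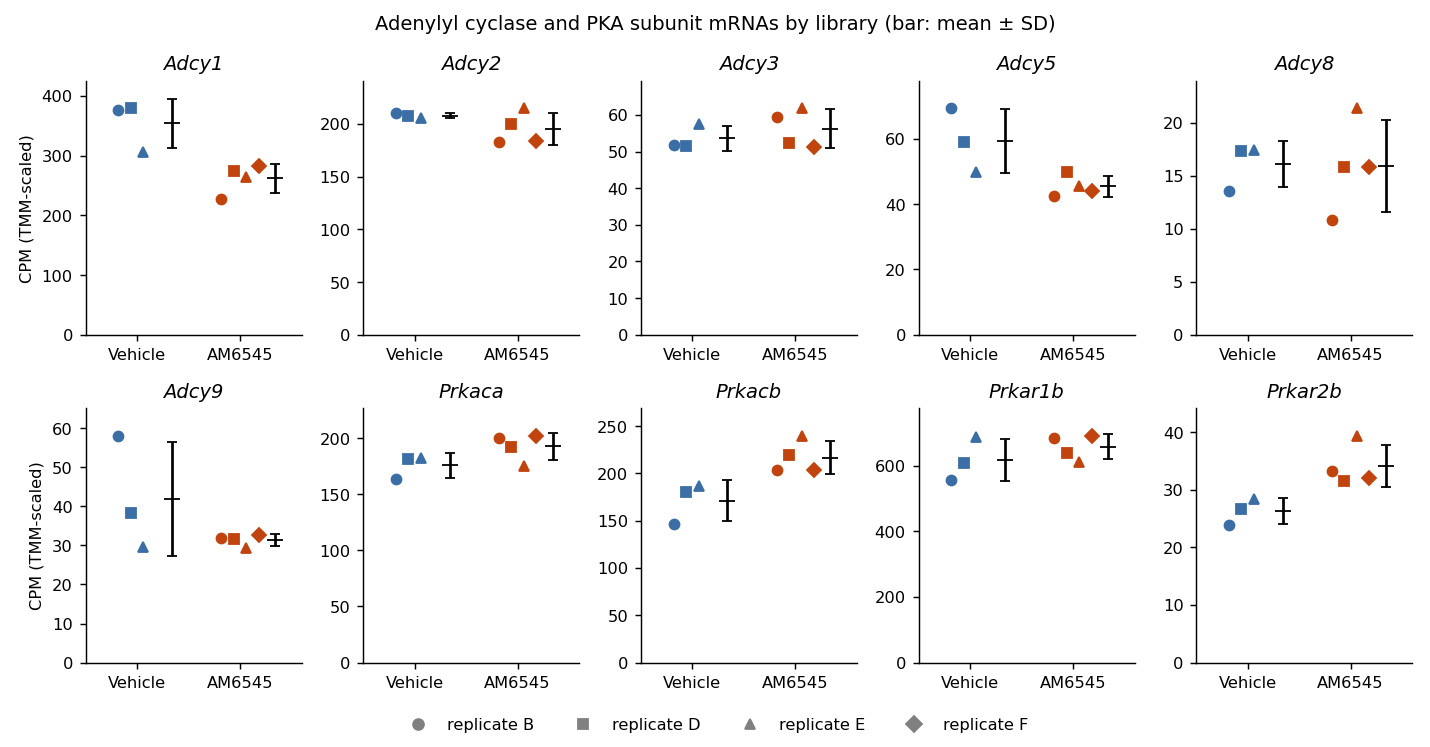
CPM after TMM scaling (y axes from 0) of the 10 genes in 3 vehicle and 4 AM6545 libraries; each point is 1 library, marker shapes give the replicate letter, and black bars are the mean ± SD of a group. The groups are separate for Adcy1, Prkacb and Prkar2b, and vehicle replicate B stands above the other libraries for Adcy9 at 58.2 CPM.

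Prkacb (ENSMUSG00000005034.16) was at 203, 219.7, 240.0 and 203 CPM in AM6545 and at 146, 181 and 187 CPM in vehicle. All AM6545 libraries were above all vehicle libraries, with AM6545 replicate E the highest and vehicle replicate B the lowest. The means were 216 ± 17.5 CPM (SD, n = 4) and 171 ± 21.7 CPM (SD, n = 3), a log2 fold change of 0.34 (SE 0.11; edgeR, p 0.0100, adjusted p 0.245). Prkaca (ENSMUSG00000005469.11; chr8:83972993-83996443, plus strand) was the more abundant catalytic subunit per kilobase. Its values were 200.5, 192, 175 and 202 CPM in AM6545 and 163, 181 and 183 CPM in vehicle. Only AM6545 replicate E lay within the vehicle range, and the log2 fold change was 0.13 (95% interval -0.05 to 0.32; edgeR, adjusted p 0.521).

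Prkar2b (ENSMUSG00000002997.16; chr12:31958476-32061296, minus strand) was at 33.2, 31.5, 39.4 and 32.1 CPM in AM6545 and at 23.8, 26.7 and 28.4 CPM in vehicle. The groups were separate, and AM6545 replicate E was again the highest library. The means were 34.1 ± 3.64 CPM (SD, n = 4) and 26.3 ± 2.31 CPM (SD, n = 3), a log2 fold change of 0.37 (SE 0.11; edgeR, p 0.00656, adjusted p 0.231). Prkar1b (ENSMUSG00000025855.14; chr5:139017306-139150001, minus strand) was at 686, 639, 613 and 693 CPM in AM6545 and at 558, 608 and 687 CPM in vehicle. The 2 ranges overlapped over most of their width, with a log2 fold change of 0.09 (95% interval -0.11 to 0.30; edgeR, adjusted p 0.697), and 8.95% of its exon bases are shared with Gm15672 on the same strand.

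Sums per length within each family are given as a description, without a test. The summed cyclase level was 91.4 to 103.9 CPM per kilobase in AM6545 and 104.3 to 119.4 in vehicle. The summed catalytic subunit level was 136 to 139 CPM per kilobase in AM6545 and 108 to 126 in vehicle, and that of the regulatory subunits was 536 to 597 and 469 to 586. The cyclase and catalytic sums did not overlap between the groups and the regulatory sums did. The cyclase sums were apart by a narrow margin, between AM6545 replicate E and vehicle replicate E. Adcy1 and Prkacb, each without overlap on its own, are parts of these sums. Of single genes tested 13.8% did not overlap, and no such share is given for sums or ratios. Prkacb over Prkaca was 0.597 ± 0.0902 in the AM6545 libraries (SD, n = 4) and 0.511 ± 0.0365 in the vehicle libraries (SD, n = 3), with ranges that overlapped. Prkar2b over Prkar1b was 0.0405 ± 0.00623 (SD, n = 4) and 0.0331 ± 0.00107 (SD, n = 3), with ranges that did not overlap. Neither sums nor ratios were corrected for GC content, which was 44.2% for Prkar2b and 55.9% for Prkar1b.

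Calls depended on the tool and on 1 library. DESeq2, which called 1.40% of genes, called Adcy1 (log2 fold change -0.44, adjusted p 0.0349), and limma-voom, which called 2.69%, also called Adcy1 (-0.46, adjusted p 0.0305), and neither called another of the 10. Without vehicle replicate E edgeR called 6.38% of genes and 3 of the 10, Adcy1 (-0.53, adjusted p 0.0245), Adcy5 (-0.50, adjusted p 0.0293) and Adcy9 (-0.62, adjusted p 0.0297). Without vehicle replicate B it called none of the 10. At an unadjusted p under 0.05 that fit kept 4 of the 10, Adcy1, Adcy5, Prkacb and Prkar2b, where 6.46% of all genes met the mark.

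**Figure D3:**
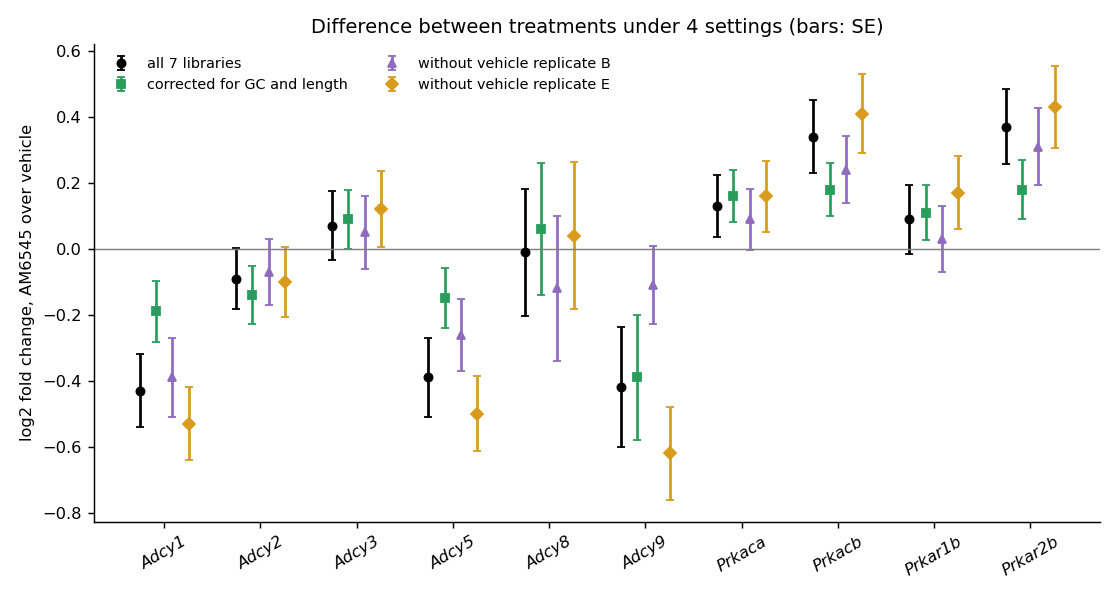
Log2 fold change of AM6545 over vehicle with its standard error for the 10 genes in 4 fits: all 7 libraries, after a correction of each library for GC and length, without vehicle replicate B and without vehicle replicate E. Adcy9 moves from -0.62 without vehicle replicate E to -0.11 without vehicle replicate B, and the values of Adcy1 and Adcy5 lie closer to 0 after the correction.

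The difference between the groups also moved with the base composition of the genes. Prkar2b and Prkacb, the 2 of the 10 with the lowest GC content (44.2% and 45.3% of transcript bases), had the largest positive log2 fold changes. Adcy5, with the highest GC content (59.5%), had one of -0.39, and Adcy9, at 55.8%, one of -0.42. The order was not kept by all 10. Adcy1, with the lowest value (-0.43), was at 52.6%. Prkaca (54.9%), Adcy3 (55.5%) and Prkar1b (55.9%) had positive values of 0.13, 0.07 and 0.09. Spearman's rho between GC content and log2 fold change was -0.48 across the 10 genes and -0.42 across 14633 genes. With transcript length it was -0.76 across the 10 and 0.25 across all. These correlations are descriptions across genes, which share the same 7 libraries and are not independent replicates.

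When the trend of each library with GC content and length was removed, 6.74% of all genes and 1 of the 10, Prkacb, had an unadjusted p under 0.05 (edgeR). Adcy1 then stood at -0.19 (SE 0.09, p 0.0672, adjusted p 0.738), Adcy5 at -0.15 (SE 0.09), Prkacb at 0.18 (SE 0.08, p 0.0446, adjusted p 0.730) and Prkar2b at 0.18 (SE 0.09). Adcy9 was at -0.39, close to its uncorrected value, and Prkaca at 0.16 (from 0.13). The 3 lower cyclases and the 2 higher PKA subunits kept their signs. The correction took GC content and length together. Adcy1, at 12259 bases, was at percentile 99.5 of length among the genes tested. Uncorrected, the genes of its GC decile (52.4% to 54.3%) had a median log2 fold change of -0.04. The separate parts of base composition and length in these differences were not tested.

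**Figure D4:**
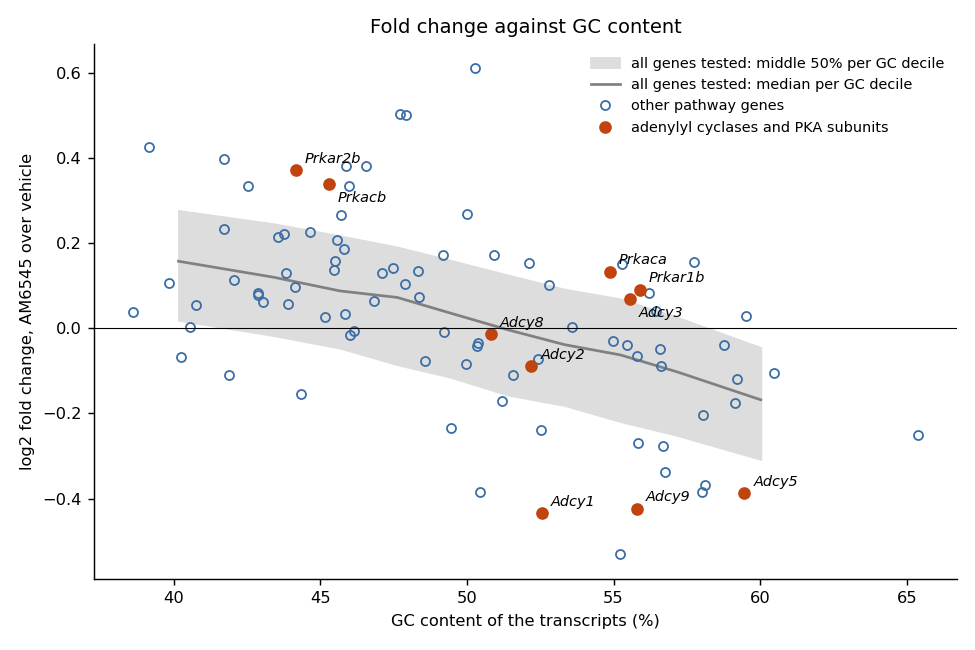
Log2 fold change of AM6545 over vehicle against the GC content of each gene's transcripts for the 10 genes (filled) and 81 other genes of the pathway (open); the line is the median and the band the middle 50% of all genes tested, per GC decile. Prkar2b and Prkacb lie above the band at low GC content, Adcy1, Adcy9 and Adcy5 lie below it at higher GC content, and Prkaca, Prkar1b and Adcy3 lie above the median of genes of like composition.

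Each of the 10 genes was counted mainly as 1 to 3 transcripts. Adcy1-201, Adcy2-201 and Adcy5-201 held all counts of their genes, and Prkaca-201, Prkar1b-201 and Prkar2b-202 held 99.9%, 99.3% and 98.9% on average over the 7 libraries. Adcy3 was split between Adcy3-201 (63.4%), Adcy3-207 (18.4%) and Adcy3-202 (14.8%), Adcy8 between Adcy8-201 (60.5%) and Adcy8-202 (39.0%), and Adcy9 between Adcy9-203 (55.0%) and Adcy9-202 (45.0%). None of the 20 transcripts of these genes that were tested passed an adjusted p under 0.05 (edgeR, 0.0177% of 33962 transcripts called), and DESeq2 called Adcy1-201 (-0.43, adjusted p 0.0399).

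At an unadjusted p under 0.05, which 8.39% of all transcripts met, there were 6: Adcy1-201 (-0.43), Adcy5-201 (-0.38), Prkacb-202 (0.27), Prkar2b-202 (0.38) and the minor forms Adcy3-204 and Prkar1b-203. The last 2 were noticed after their values were seen. Adcy3-204 had 31.0, 17.2, 25.2 and 0 counts in AM6545 replicates B, D, E and F, and Prkar1b-203 had 18.4, 0, 54.4 and 57.4. Both were listed at 0 in all 3 vehicle libraries, and neither had a share of its gene above 2.25% in any library.

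The 3 Prkacb transcripts whose starts are shown above took 92.3% (Prkacb-202), 5.03% (Prkacb-203) and 2.58% (Prkacb-204) of Prkacb counts on average. The latter 2 fall under the share set for naming transcripts and were chosen after their values were seen. Prkacb-203, with the start codon followed by 4 further bases of its own, held 7.68%, 6.97%, 6.04% and 3.57% in AM6545 replicates B, D, E and F and 1.34%, 3.02% and 6.56% in vehicle replicates B, D and E. The groups overlapped, with vehicle replicate E among the AM6545 values.

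Prkacb-204, with 10 own coding bases, held 3.20%, 3.92%, 4.13% and 2.93% in AM6545 and 0.240%, 1.001% and 2.66% in vehicle. Every AM6545 library was thus above every vehicle library, by a narrow margin (2.93% against 2.66%). Its value in vehicle replicate B rested on 8.7 counts. The share of all transcripts without overlap is not given here. By edgeR the log2 fold changes were 1.02 for Prkacb-203 (SE 0.59, p 0.128, adjusted p 0.688) and 1.72 for Prkacb-204 (SE 0.75, p 0.0573, adjusted p 0.610). Summed over both, their share was 10.9%, 10.9%, 10.2% and 6.50% in AM6545 replicates B, D, E and F and 1.58%, 4.02% and 9.22% in vehicle replicates B, D and E, so the groups overlapped, with vehicle replicate E above AM6545 replicate F. Prkacb-202 itself had a log2 fold change of 0.27 (SE 0.10, p 0.0281, adjusted p 0.561).

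**Figure D5:**
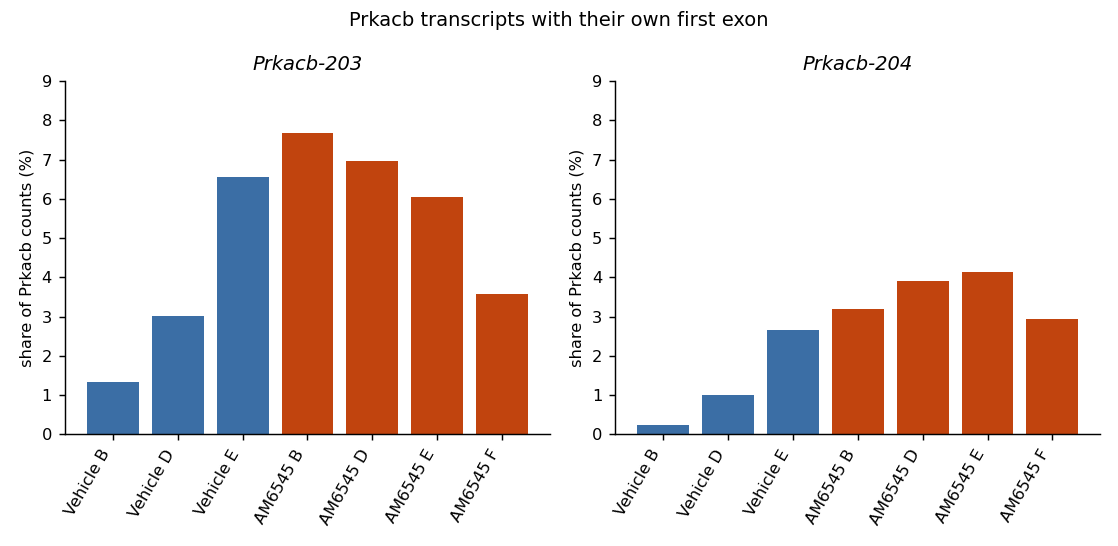
Share of Prkacb counts (percent, bars from 0) of the transcripts Prkacb-203 and Prkacb-204 in each of the 3 vehicle and 4 AM6545 libraries. Prkacb-204 is above 2.9% in all AM6545 libraries and at most 2.66% in vehicle, while Prkacb-203 reaches 6.56% in vehicle replicate E.

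The rest of the cascade was read from 9 lists of 87 genes, of which 81 were tested. None passed an adjusted p under 0.05 (edgeR). At an unadjusted p under 0.05 there were 15 of 81 (9 higher, 6 lower), and 14 of 81 did not overlap between the groups, to be read against the 14.6% and 13.8% of all genes. Their median log2 fold change was 0.06, against 0.01 over all genes tested. Once libraries were corrected for GC content and length, 5 of the 81 had an unadjusted p under 0.05, where 6.74% of all genes did. Without vehicle replicate B 6 of the 81 did (Gnai1, Gnai3, Pde1a, Pde11a, Pkia and Acbd3), where 6.46% of all genes did, and vehicle replicate B was thus the library without which the fewest pathway genes met the mark.

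Upstream, 2 of 7 G protein alpha subunits that act on adenylyl cyclase were higher at an unadjusted p under 0.05 and 0 were lower. Of all genes tested, 5.86% were higher and 8.70% lower at that mark, and the counts of the lists below are to be read against these shares too. The 2 higher genes, both of the inhibitory Gi class, also did not overlap, where 13.8% of all genes tested did not. Gnai3 was at 46.2, 42.6, 45.1 and 41.7 CPM in AM6545 and at 28.9, 36.1 and 34.9 CPM in vehicle (log2 fold change 0.40, SE 0.11, p 0.00274). Gnai1 was at 251, 251, 274 and 255 CPM against 174, 224 and 215 CPM (0.33, SE 0.11, p 0.00814). Gnai2, also of the Gi class, and Gnao1, the Go alpha subunit, had values of -0.09 and -0.07. After the GC and length correction Gnai3 was at 0.18 (p 0.0504) and Gnai1 at 0.13 (p 0.126).

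Of the other cyclases, Adcy6, which like Adcy5 is restrained by Gi and by calcium, was at 5.67, 6.49, 5.41 and 5.60 CPM in AM6545 and at 11.2, 8.02 and 5.74 CPM in vehicle. As with Adcy9, vehicle replicate B was far above and vehicle replicate E lay among the AM6545 libraries, and the log2 fold change was -0.53 (SE 0.20, p 0.0187) and -0.25 (p 0.173) without vehicle replicate B. Of its exon bases 8.92% lie opposite Gm29331. Adcy7 had a value of -0.24 (p 0.241). Among 16 cAMP phosphodiesterases, which break cAMP down, 15 were tested, 2 were higher at an unadjusted p under 0.05 and 0 lower. Pde11a, which hydrolyses cAMP and cGMP, was at 7.25 to 9.47 CPM in AM6545 and 5.20 to 6.28 CPM in vehicle (0.50, p 0.00420). Pde1a, activated by calcium and calmodulin, was at 175 to 203 CPM and 151 to 168 CPM (0.23, p 0.0278). After the correction Pde11a was at 0.35 (p 0.0416) and Pde1a at 0.01 (p 0.900), and without vehicle replicate E Pde1a was at 0.20 (p 0.0787). Pde4a and Pde4d had values of -0.05 and -0.08.

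Of the 3 heat-stable inhibitor peptides of the PKA catalytic subunit, 1 was higher and 1 lower at an unadjusted p under 0.05, and none passed an adjusted p under 0.05 (edgeR). Pkia was at 132, 162, 174 and 145 CPM in AM6545 and at 105, 123 and 114 CPM in vehicle, without overlap (log2 fold change 0.42, SE 0.11, p 0.00262, edgeR adjusted p 0.199). DESeq2 (adjusted p 0.0459) and limma-voom (adjusted p 0.0444) called it, and after the GC and length correction it was at 0.18 (p 0.0549). Pkig was at 126, 139.7, 135 and 135 CPM against 180.1, 153 and 154 CPM, also without overlap but lower (-0.28, SE 0.10, p 0.0137). That value was 0.004 after the correction and -0.19 (p 0.0523) without vehicle replicate B, and 22.3% of its main transcript matches Gm6334, so the level of Pkig is uncertain. Pkib was at -0.07 (p 0.618).

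Prkar1a and Prkx, the other PKA subunits named here, had log2 fold changes of 0.19 (p 0.121) and 0.27 (p 0.0827), and none of the 3 in that list had an unadjusted p under 0.05. Of 20 tested A-kinase anchoring proteins, which hold PKA at its targets, 3 were higher and 1 was lower at that mark. Acbd3, an anchor at the Golgi, was at 35.8 to 38.5 CPM in AM6545 and 22.3 to 32.8 CPM in vehicle (0.38, p 0.0110). Akap5, the postsynaptic anchor that binds PKA, calcineurin and protein kinase C, was at 28.1 to 32.6 CPM and 24.1 to 27.4 CPM (0.23, p 0.0476). Both were without overlap. Wasf1, a regulator of actin outside the naming rule and named after its values were seen, was the third (0.27, p 0.0476), and Cbfa2t3 was lower (-0.37, p 0.0261) with overlapping groups, while Akap11 was at -0.11. Without vehicle replicate B Acbd3 was at 0.24 (p 0.0296), Akap5 at 0.17 (p 0.127) and Cbfa2t3 at -0.26 (p 0.123). The GC and length correction gave 0.22 (p 0.0401), 0.18 (p 0.0813) and -0.32 (p 0.0609) for these 3.

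Downstream, 2 of 8 tested other cAMP effectors met the unadjusted mark. Rapgef4, the exchange factor Epac2, was at 461, 527, 515 and 433 CPM in AM6545 and at 302, 391 and 460.5 CPM in vehicle (0.33, p 0.0316), overlapping at vehicle replicate E, and 5.05% of its exon bases lie opposite Rapgef4os2. It was at 0.19 (p 0.124) without vehicle replicate B and at 0.18 (p 0.119) after the GC and length correction. Hcn2, a channel opened by hyperpolarisation and bound by cAMP, was at 55.7 to 62.3 CPM against 64.7 to 75.9 CPM (-0.25, p 0.0244), at -0.18 (p 0.0832) without vehicle replicate B and at -0.05 (p 0.564) after the correction. Bves and Hcn3 had values of 0.14 and -0.20.

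Of 9 genes of the CREB family and its coactivators 1 was at that mark, the coactivator Crtc3, at 7.05 to 8.36 CPM in AM6545 and 8.50 to 10.6 CPM in vehicle (-0.34, p 0.0247). Crtc3 was at -0.31 (p 0.0650) without vehicle replicate B and at -0.28 (p 0.0529) after the correction. Creb1, Crem and Crtc1 were at 0.11, 0.08 and -0.17. Of 14 PKA substrates and phosphatase inhibitors 1 was at that mark, the inhibitor-1 gene Ppp1r1a, whose product blocks protein phosphatase 1 once PKA has phosphorylated it. Ppp1r1a was at 115 to 137 CPM in AM6545 and 141 to 168 CPM in vehicle (-0.27, p 0.0243), at -0.18 (p 0.0951) without vehicle replicate B and at -0.05 (p 0.554) after the correction. The vesicle fusion protein Snap25 (0.21, p 0.0597), the vesicle protein Syn1 (0.16) and the calcium release channel Itpr1 (-0.23, p 0.0545) did not reach it.

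Without vehicle replicate E, 6 of these genes passed an adjusted p under 0.05 (edgeR), in a fit that called 6.38% of all genes: Adcy6 (-0.73), Cbfa2t3 (-0.52), Acbd3 (0.50), Rapgef4 (0.48), Gnai3 (0.43) and the anchoring protein gene Pakap (1.09), which lies outside the naming rule and was named after its values were seen. Their adjusted p-values lay between 0.0297 and 0.0477.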

How the data were processed

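Messenger RNA of 7 libraries was quantified by the authors with Salmon 1.5.2 against mm10, per the submitters' processing notes; the annotation release and the use of strand are not given in the sources used here. The deposited values are estimated counts for 22248 genes and 102392 transcripts, not scaled to a common total (83.5% of gene values above 0 are not whole, tolerance 1e-09). Per the labels' protocols, total RNA came from an RNeasy column and the SMARTer Ultra Low Input kit was used for the libraries. Names, transcript lengths, GC content and coordinates come from GENCODE release M21 (GRCm38); all 10 identifiers carry a higher version in the deposited table than in that release, so transcript models may differ from those used for counting. All 195 genes listed were matched.

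Counts were rounded to whole numbers. AM6545 was compared with vehicle in all 7 libraries by edgeR 4.0.16 (quasi-likelihood test, TMM scaling, filterByExpr, robust fit, no covariates; limma 3.58.1, R 4.3.3), with Benjamini-Hochberg adjustment over all features tested and a threshold of 0.05. A standard error is the log2 fold change over the root of its F statistic, without sign. The 95% intervals use this standard error with a normal quantile, so they are narrower than intervals from the F test would be. CPM and CPM per kilobase were computed here with TMM-scaled library sizes. Adjusted p-values in the text are from edgeR unless another tool is named. The code was tested on simulated data. The depth of 19174649 to 25894733 counts and the median biological coefficient of variation of 12.4% set the precision.

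The text names the 10 genes, in each of 9 pathway lists the 2 tested genes per direction with the smallest p, and transcripts with at least 10% of their gene's counts. The 10 genes and all lists were chosen with earlier results of these data known. Alternatives were other scalings (DESeq2 size factors, total counts, upper quartile), DESeq2 1.42.0, limma-voom, other count filters (none; a mean of at least 50), no robust estimation, transcripts summed per gene, the replicate letter as a block, a correction for GC content and length (lowess, span 0.3), and leaving out each library. Unadjusted counts and the values of pathway genes under each alternative were added after seeing the data. Promoter windows are from RefSeq (GRCm38.p6). Exons that overlap another gene, and matches of at least 95% identity over 100 bases to another gene, were checked for the genes named.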

Additional observations from a re-analysis of the deposited data

Results flagged for a closer look

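In 3 of 41 genes compared, 1 AM6545 library stood apart from the other 3 by Dixon's ratio, where chance alone gives about 2.05. Prkar1a was at 938 CPM in AM6545 replicate E, below the other AM6545 libraries (1054 to 1061 CPM) and within the vehicle range (809 to 1035 CPM). Gnai1 was at 274 CPM in AM6545 replicate E, above the others (251 to 255 CPM) and above the vehicle libraries (174 to 224 CPM). Gnai2 was at 305 CPM in AM6545 replicate D, above the others (266 to 271 CPM) and within the vehicle range (274 to 327 CPM). The vehicle group, with 3 libraries, is too small for this comparison.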

How the results depend on the processing

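Of 747 fold changes of 41 named genes recomputed under the alternatives, 720 kept their direction and side of the threshold, 12 passed the threshold and 15 turned sign; where no cause is stated it was not tested. The count of the 10 genes past the threshold, 0 by edgeR, was 1 with DESeq2, 1 with limma-voom and 0 to 3 when 1 library was left out, the 3 without vehicle replicate E. For the pathway genes it was 1, 1 and 0 to 6, the 6 without vehicle replicate E, and for transcripts of the 10 genes it was 1 with DESeq2. At an unadjusted p under 0.05, the count of 5 among the 10 genes was 1 after the GC and length correction, 0 with that correction and the replicate block, and 4 to 5 with 1 library left out. The 15 pathway genes became 9 with the replicate block, 5 after the correction, 1 with both, and 6 to 21 with 1 library left out (6 without vehicle replicate B, 9 without AM6545 replicate B and 9 without AM6545 replicate E).

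The labels do not say what the replicate letters mean. The deviations of same-letter libraries from their group means correlated at -0.26 (B), -0.13 (D) and -0.18 (E). Between libraries of different letters the values ran from -0.17 to 0.22. Libraries of the same letter thus did not deviate in the same direction. All same-letter values were negative, and the reason was not tested. So few pairs cannot exclude a pairing by letter. The replicate block is therefore a check only, and it called 0 of the 10 genes. Adcy8 turned to 0.02 with total counts, 0.06 after the correction, 0.03 with the correction and block, 0.04 without vehicle replicate D or E, and ranged from -0.19 to 0.13 (without AM6545 replicate B) with 1 library left out. Pkig turned to 0.004 after the correction and 0.02 with the block added, Bves to -0.03 after the correction, and with correction and block Prkar1a turned to -0.01 and Gnai2 to 0.01. With 1 library left out, Pkib ranged from -0.16 to 0.08, Akap11 from -0.25 to 0.07 and Pde4a from -0.16 to 0.03, each positive without vehicle replicate B, and Pde4d from -0.16 to 0.02, positive without AM6545 replicate D. Depth limits Adcy4 and Adcy10, which had 24 and 19 counts in all and were not tested.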
